A study of Mus musculus with 2 samples.

Results

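The interleukin 6 family was followed as 9 genes of the 32285 in the deposited tables: the cytokines Il6, Lif, Il11 and Osm, the receptors Il6ra, Il6st, Lifr and Osmr, and the feedback inhibitor Socs3. They were found by gene symbol, each matched 1 row, and all 9 were measured in both libraries. The rule took them by name and had no threshold on a level.

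Cytokines of this family act through gp130, the signalling receptor encoded by Il6st. IL-6 and IL-11 first bind a receptor of their own (Il6ra and Il11ra1) that then recruits gp130, whereas leukaemia inhibitory factor (Lif) pairs gp130 with Lifr and oncostatin M (Osm) pairs it chiefly with Osmr. The receptor complex activates JAK kinases and the transcription factor STAT3, which switches on Socs3, and the Socs3 protein then blocks gp130. In adipose tissue the family is known for its part in inflammation, and IL-6 also drives acute phase genes.

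The cells came from perigonadal white adipose tissue (gWAT) of male Cyp1a1 fate reporter mice (Cyp1a1Cre x R26LSL-eYFP), in which a cell that has switched on Cyp1a1 becomes permanently eYFP+. Cyp1a1 is induced by the aryl hydrocarbon receptor. For 12 weeks the mice were fed a diet with 10% fat (low-fat diet, LFD) or with 60% fat (high-fat diet, HFD), and all received 10 mg/kg of the receptor ligand FICZ 5 days before tissue was taken. The stromovascular fraction was released by enzyme digestion, live eYFP+ cells were sorted, and 1 single-cell library was made per diet from pooled mice, so the data held only cells in which the Cyp1a1 driver had been active. There was no group without FICZ and no replicate: each diet difference below is between 2 libraries, was not tested, and could not be told apart from a difference between mice, digestions or sorts.

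After filtering, the LFD library held 9294 cells with a median of 10213.5 UMIs and the HFD library 7879 cells with a median of 12709. A UMI is 1 counted RNA molecule. Cells were clustered without the members, and 12 cell types were told from marker genes. A cluster called Wt1+ stromal had 8 of 9 visceral stroma markers but also 10 of 14 adipocyte progenitor (APC) markers, and genes such as Meg3, Col1a1 and Dcn led it, so it was named by description. The 10 mesothelial keratin markers summed to 109 CPM (UMIs of a gene in 1000000 UMIs of the same cells) in its LFD cells and 394 CPM in its HFD cells. The same markers summed to 598 and 1116 CPM in a cycling Wt1+ stromal cluster, which had 8 of the 10, to 1111 and 1704 CPM in a mesothelial-like cluster, and to 10.3 and 7.87 CPM in an APC-like one. The part of these differences in the ratios below was not tested. Wt1 was not particular to the clusters named for it, as the APC-like cluster had 6 of the 9 visceral stroma markers. Its Wt1 level was 194 CPM in LFD and 201 CPM in HFD, against 300 and 332 CPM in Wt1+ stromal cells. CPM counts RNA ends and does not depend on gene length. The cycling Wt1+ stromal, mesothelial-like and APC-like clusters are grouped with the Wt1+ stromal one below as the 4 stromal clusters. Free RNA taken up in droplets was estimated in stromal cells from immunoglobulin genes that they should lack. It was 1.31% to 3.62% of the library mean level in 3 of the 4, but 18.6% in LFD against 3.08% in HFD APC-like cells. The libraries shared 27 barcodes, 21 of them among the cells kept.

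In the GRCm38 annotation Il6 spans chr5:30013114-30019981 on the plus strand, Il11 chr7:4772373-4782859 on the minus strand, and Lif and Osm lie as neighbours on the plus strand at chr11:4257557-4272514 and chr11:4236420-4241026. Of the receptor genes, Il6st spans chr13:112464070-112510086 (plus) and Il6ra chr3:89864059-89913196 (minus), while Lifr at chr15:7090614-7197489 (plus) and Osmr at chr15:6813577-6874969 (minus) share a chromosome. Socs3 spans chr11:117966079-117970047 on the minus strand.

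Upstream sequence is shown for 3 members, the cytokines Il6 and Lif, whose RNA lay mainly in stromal cells, and their shared receptor Il6st. Each is the RefSeq stretch (GRCm38.p6) from 212 to 13 bases before the start used for the promoter window, on the gene's strand. For Il6 and Il6st that start is the first base of the span given above, but for Lif it lies a few bases inside the span. Capitals mark matches on either strand to 6 short motifs: the XRE core GCGTG bound by the aryl hydrocarbon receptor, NF-kB (GGG, then any base at each of 2 places, then TTTCC), AP-1 TGANTCA, the short CRE core ACGTCA, C/EBP TTNNGCAA and STAT TTCNNNGAA.
Il6, chr5:30012902-30013101, plus strand: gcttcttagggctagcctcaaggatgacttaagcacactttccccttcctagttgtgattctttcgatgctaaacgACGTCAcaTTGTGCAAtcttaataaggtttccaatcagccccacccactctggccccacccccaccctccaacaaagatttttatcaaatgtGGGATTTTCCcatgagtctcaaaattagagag
Lif, chr11:4257356-4257555, plus strand: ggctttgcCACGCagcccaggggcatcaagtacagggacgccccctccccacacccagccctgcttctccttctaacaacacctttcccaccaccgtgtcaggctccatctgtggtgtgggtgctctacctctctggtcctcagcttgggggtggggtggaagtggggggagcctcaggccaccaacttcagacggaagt
Il6st, chr13:112463858-112464057, plus strand: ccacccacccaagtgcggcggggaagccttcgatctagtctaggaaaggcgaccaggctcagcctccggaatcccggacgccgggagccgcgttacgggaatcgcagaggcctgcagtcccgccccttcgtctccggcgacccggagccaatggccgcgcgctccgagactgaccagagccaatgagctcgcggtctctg

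The Il6 stretch held an NF-kB match beginning 44 bases before the start, and a C/EBP and a CRE core match at 128 and 136 bases. Of 32851 mouse promoter windows of 300 bases, 1.63% held the NF-kB motif, 10.8% the C/EBP motif and 7.51% the CRE core. Il6 was the only member with the NF-kB letters among the 8 members that had a window. The XRE core, which 32.4% of all windows held, was found in 4 of those 8 members (Il6ra, Lif, Osmr and Lifr) and not in Il6. Lif carried the XRE core on the opposite strand, beginning 204 bases before the start of its window, which is not the first base of its span, and Il6st carried no match to any of the 6. AP-1 letters, in 7.81% of all windows, were in Il6, Il11, Lif and Osmr, and the STAT letters, in 8.30%, were in Socs3 only. Some windows did not begin outside the gene: those of Socs3 and Osmr and both of the 2 windows of Lifr lay wholly inside the spans given above. Lifr had the XRE letters in 1 of its 2, and of the 2 windows of Il11 the AP-1 letters were in the one inside the gene and not in that at its outer start. These are matches of letters within a window and not binding sites.

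Il6 RNA was found mainly in the stromal cells. The 4 stromal clusters held 98.2% of the 11541 Il6 UMIs in LFD (95% exact binomial interval 97.9 to 98.4%) and 97.8% of 13230 in HFD (97.5 to 98.1%), although they made up 63.5% and 50.8% of the cells. Their share of all UMIs was larger than that, since most other types were shallower. LFD medians were 10807 UMIs in Wt1+ stromal and 4045 in B-like cells. Over the whole library, the Il6 level was 120 CPM in LFD and 132 CPM in HFD. In LFD, the level was 204 CPM in APC-like cells (95% exact Poisson interval 186 to 224) and 193 CPM in Wt1+ stromal cells (189 to 198), which overlapped. Mesothelial-like cells followed at 110 CPM and cycling Wt1+ stromal cells at 90.6 CPM, each apart from its neighbours in that order. All intervals cover counting error only. Immune and endothelial cells carried less. Neutrophil-like LFD cells were at 27.3 CPM (10.98 to 56.3, from 7 UMIs), with a free RNA estimate of 0 that is uncertain, since single tracers gave up to 8.10% of the library mean level. The 14 fibroblastic APC markers summed to 2122 CPM in these cells with none at 0, and their part in the Il6 level was not tested. The level was 21.5 CPM in endothelial-like, 16.5 CPM in macrophage-like and 5.90 CPM in B-like LFD cells, where free RNA alone was estimated at 3.18, 3.83 and 3.86 CPM. Plasma cell-like LFD cells were at 3.28 CPM (1.91 to 5.25), near their free RNA estimate of 1.84 CPM, which is uncertain because single tracer genes gave from 1.30% to 58.2% of the library mean level.

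**Figure D1:**
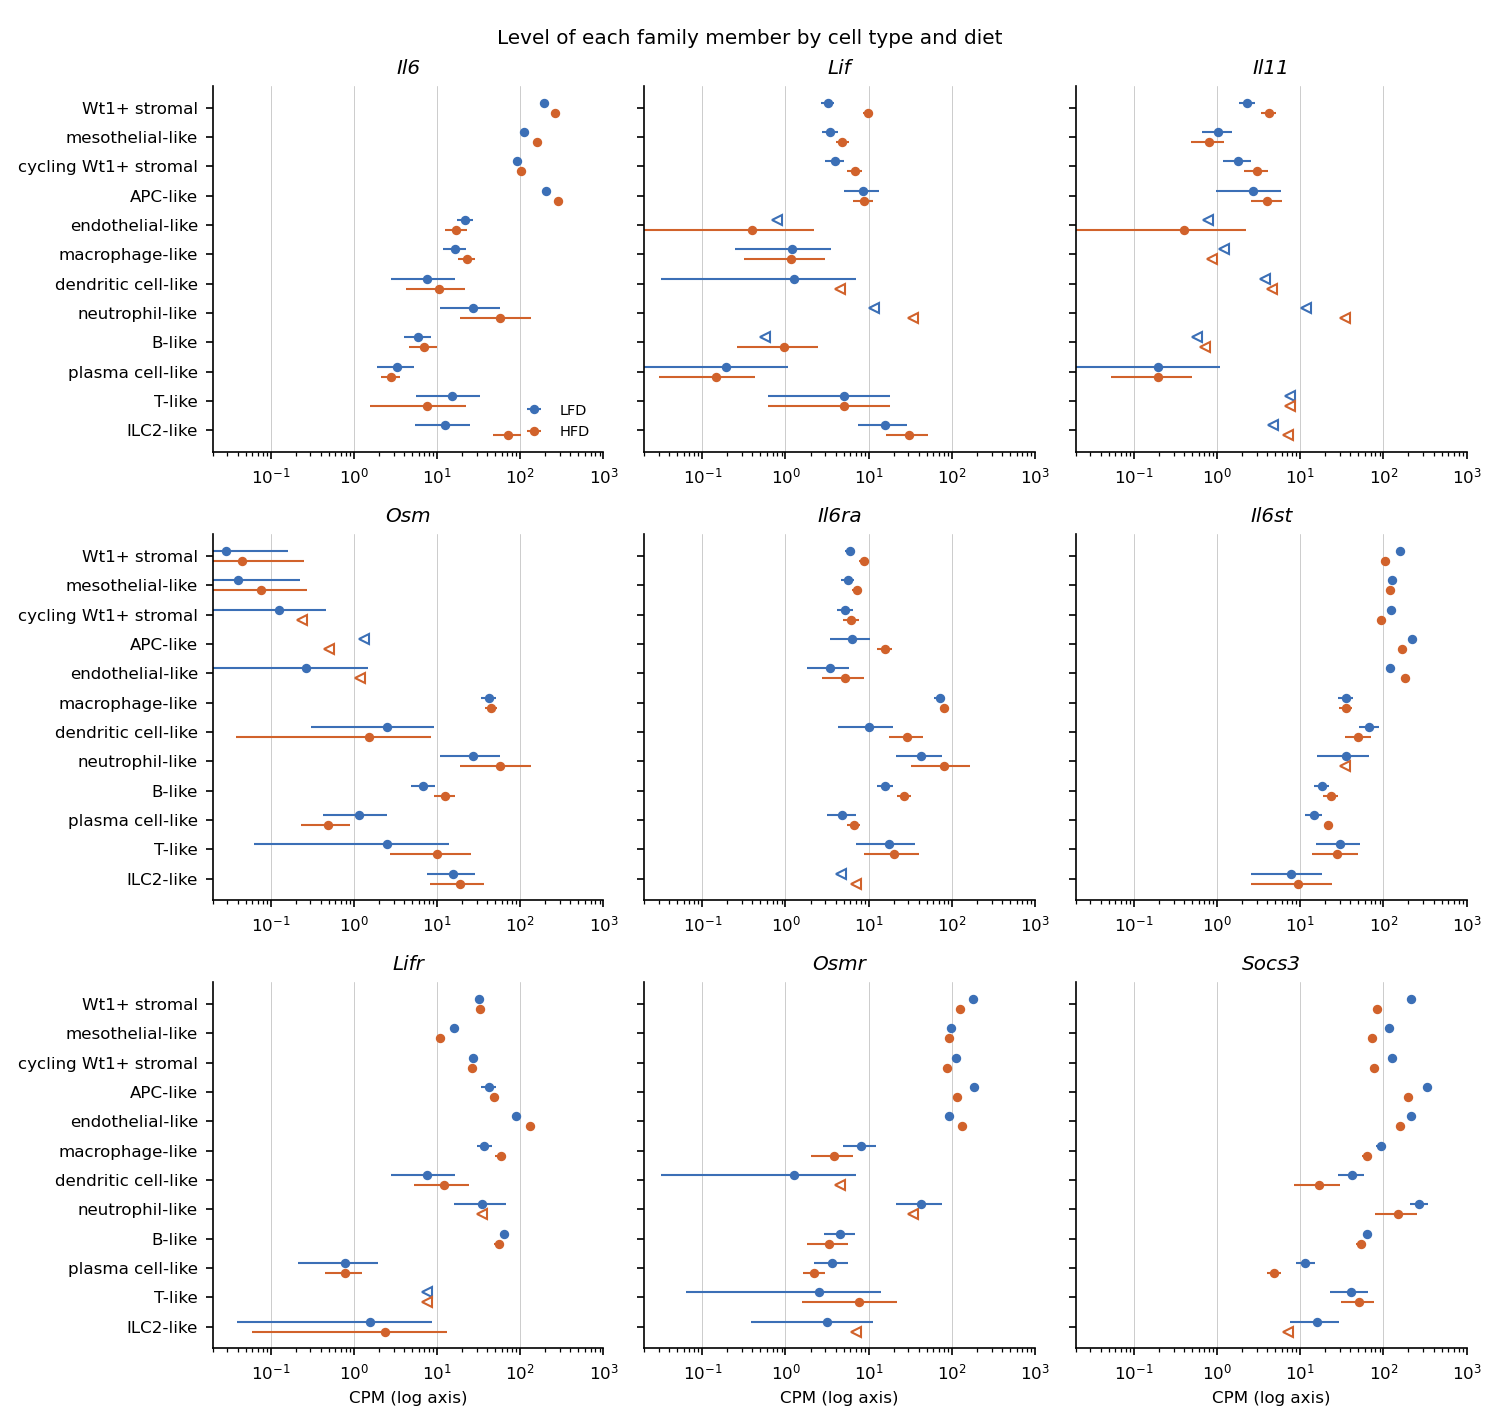
Level of the 9 members in the 12 cell types (CPM, log axis). Points are the LFD (blue) and HFD (orange) libraries, bars exact 95% Poisson intervals, and open triangles the level that 3 counts would give where no UMI was found. Il6 lies near 100 CPM or above in the 4 stromal types only, Osm lies highest in macrophage-like and neutrophil-like cells, and Lifr highest in endothelial-like cells.

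On HFD, the Il6 level was 260 CPM in Wt1+ stromal, 158 CPM in mesothelial-like, 102 CPM in cycling Wt1+ stromal and 287 CPM in APC-like cells. Each of these was above its LFD level. The HFD to LFD ratios were 1.35 (1.30 to 1.40), 1.45 (1.38 to 1.52), 1.12 (1.04 to 1.21) and 1.40 (1.26 to 1.56), with intervals that left out 1. The estimate of free RNA in APC-like cells was 22.2 CPM in LFD and 4.07 CPM in HFD. The median gene, taken over genes with at least 20 UMIs in each library, was itself higher in HFD, by 0.09, 0.13, 0.13 and 0.06 on the log2 scale in the same order, and relative to it the Il6 ratios were 1.26, 1.32, 1.02 and 1.34, so that of the cycling cells was near 1. In endothelial-like cells the ratio was 0.792 (0.535 to 1.16) and in macrophage-like cells 1.38 (0.936 to 2.07), intervals that both held 1.

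Among the immune cells on HFD, Il6 was highest in group 2 innate lymphoid cells (ILC2-like), with neutrophil-like cells overlapping them at 57.3 CPM (18.6 to 134, from 5 UMIs in 74 cells), too few cells for a ratio. In ILC2-like cells the Il6 level was 12.6 CPM in LFD, from 8 UMIs in 5 of 112 cells, and 70.5 CPM in HFD, from 30 UMIs in 12 of 101 cells. The ratio was 5.62, with an interval from 2.52 to 14.2. The 14 fibroblastic APC markers summed to 2875 CPM in the LFD and 1645 CPM in the HFD ILC2-like cells, with 2 and 4 of them at 0, and the 10 mesothelial keratins to 12.6 and 16.5 CPM, with 3 and 4 of them at 0. Free Il6 RNA was estimated at 5.20 CPM on LFD and 3.71 CPM on HFD. As a mean over cells the ratio was 8.51.

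Within a stromal type, Il6 was unevenly spread over the cells. When each cell was thinned to 2000 UMIs, 72.8% of LFD and 69.9% of HFD Wt1+ stromal cells had no Il6 UMI, while up to 7 were counted in 1 LFD cell and 6 in 1 HFD cell. The variance over cells was 1.46 and 1.69 times the mean, where pure counting gives a value near 1. Il6 in the HFD APC-like cells had the highest such value among the stromal types, 2.32, against 1.32 in LFD. In Wt1+ stromal LFD cells the value was 1.58 for Socs3, above that of Il6, 1.17 for Il6st and 1.13 for Osmr, and in HFD it was 1.12, 0.989 and 1.05 in that order. Without thinning, 58.6% of LFD and 69.3% of HFD Wt1+ stromal cells had an Il6 UMI, but their median depths were 10807 and 16531 UMIs, and the thinned shares were 27.2% and 30.1%.

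Wt1+ stromal cells with more Il6 UMIs also had, in both libraries, more of the chemokine Cxcl1, a neutrophil attractant. Among HFD Wt1+ stromal cells, Cxcl1 stood at 1243 CPM in the cells with no Il6 UMI and at 1818 CPM (1595 to 2063) in those with 3 or more. In LFD the values were 880 and 1301 CPM (1128 to 1493), and in HFD mesothelial-like cells 792 and 1824 CPM. LFD mesothelial-like cells had 721 CPM with no Il6 UMI, 1109 CPM with 1 and 989 CPM (792 to 1219) with 2. The monocyte attractant Ccl2 was at 1541 and 2189 CPM in HFD Wt1+ stromal cells without Il6 UMIs and with 3 or more. In LFD ones it was at 1018 CPM (989 to 1048) with none, 1146 CPM (1084 to 1212) with 1, 1383 CPM (1270 to 1503) with 2 and 1154 CPM (991 to 1335) with 3 or more, whereas the actin gene Actb was at 2428 and 2364 CPM in HFD. Socs3 was at 224 CPM in LFD Wt1+ stromal cells without Il6 UMIs and at 205 CPM (140 to 290) in those with 3 or more, intervals that overlapped. In HFD APC-like cells, however, Socs3 was at 189 CPM (160 to 223) without Il6 UMIs and at 341 CPM (227 to 494) with 3 or more. Osmr had 177 CPM (164 to 189) in LFD Wt1+ stromal cells without Il6 UMIs and 282 CPM (205 to 379) in those with 3 or more, and in HFD 125 CPM (109 to 142) and 167 CPM (104 to 252), which overlapped. Il6st had 102 CPM (87.6 to 117) and 189 CPM (123 to 280) in HFD, and in LFD 150 CPM (139 to 162) and 186 CPM (124 to 267), which overlapped. The upper groups held few UMIs, and whether the libraries differed in this was not tested. The 15 immediate early and dissociation-sensitive genes, summed, also differed between the groups. In HFD they were at 10793 CPM (10643 to 10944) in Wt1+ stromal cells without Il6 UMIs and 12136 CPM (11549 to 12746) in those with 3 or more, 7866 and 9059 CPM in mesothelial-like cells, and 12195 and 15854 CPM in APC-like cells. In LFD Wt1+ stromal cells their sum was 13588 CPM (13480 to 13697) and 14135 CPM (13551 to 14737), which overlapped, but with 2 Il6 UMIs it was lower, 12978 CPM (12628 to 13335). In LFD mesothelial-like cells their sum was 8584 CPM (8478 to 8691) with no Il6 UMI and 10682 CPM (10010 to 11387) with 2. Their part in the values of Cxcl1, Ccl2 and Socs3 was not tested. Cells of a library share their depth and source, so these are descriptions.

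**Figure D2:**
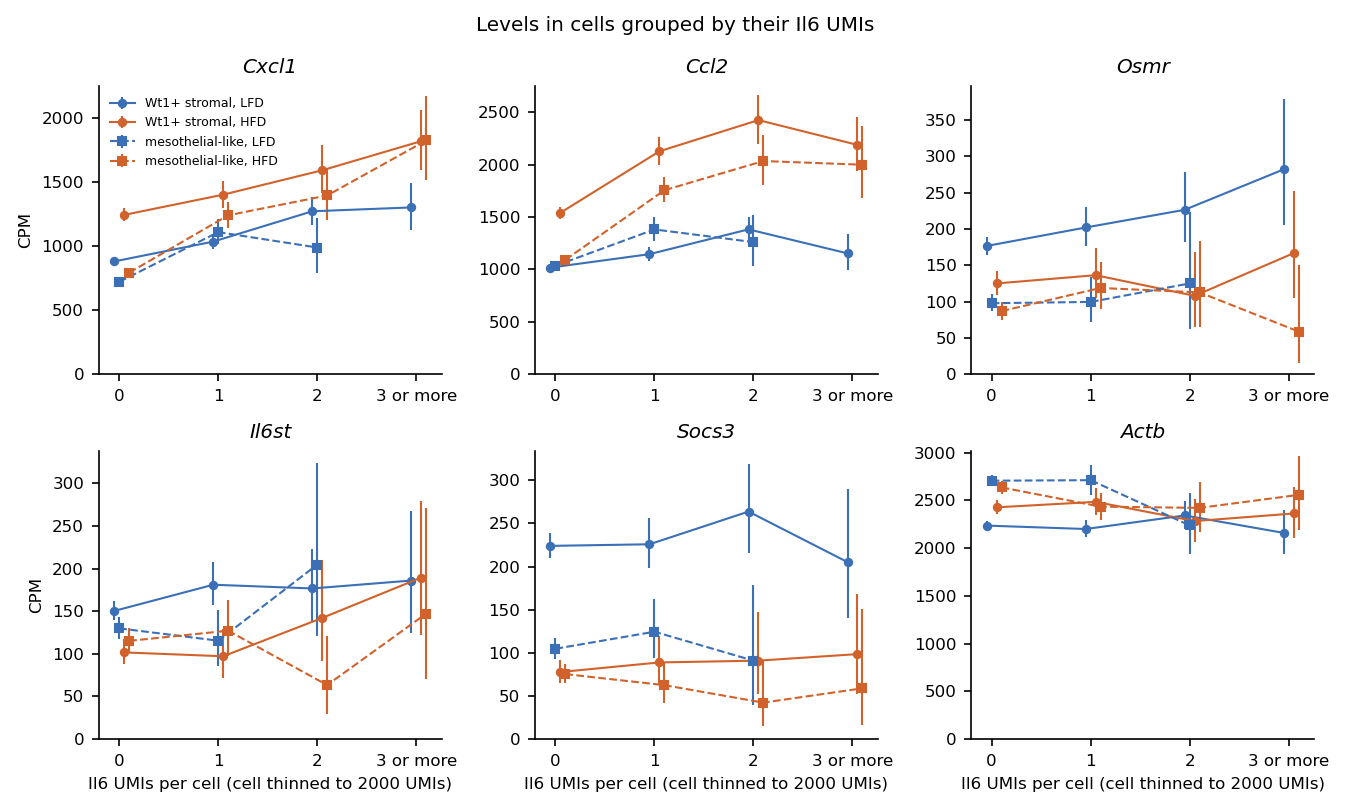
Level of Cxcl1, Ccl2, Osmr, Il6st, Socs3 and Actb (CPM, with exact 95% Poisson intervals) in Wt1+ stromal (circles) and mesothelial-like cells (squares) grouped by their Il6 UMIs after thinning to 2000 UMIs, in LFD (blue) and HFD (orange). Groups under 20 cells are not drawn. In HFD Wt1+ stromal cells Cxcl1 is at 1243 CPM with no Il6 UMI and 1818 CPM with 3 or more, while the intervals of Socs3 and of Actb overlap between these groups.

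Lif, whose product maintains stem cells and activates the same gp130 pathway, was far rarer than Il6, with 294 UMIs in LFD and 509 in HFD. The same clusters held most of it, with 94.2% of its LFD and 94.5% of its HFD UMIs in the 4 stromal clusters. In Wt1+ stromal cells 112 LFD UMIs gave a Lif level of 3.21 CPM (2.64 to 3.86), and 215 HFD UMIs gave 9.73 CPM (8.48 to 11.1). This ratio of 3.03 (2.40 to 3.85) was the highest of the 4 cytokines in the stromal clusters, but it was 0.997 under a stricter cell filter (1000 to 25000 UMIs, under 5% mitochondrial), which kept 2275 LFD and 2807 HFD cells. Of these, 490 LFD and 268 HFD cells were Wt1+ stromal. In cycling Wt1+ stromal cells the levels were 3.92 and 6.80 CPM (ratio 1.74, 1.24 to 2.45), in mesothelial-like cells 3.42 and 4.83 CPM (1.41, 1.06 to 1.88), and in APC-like cells 8.48 and 8.70 CPM (1.03, 0.597 to 1.84). The APC-like cells thus had the highest LFD level of the stromal types and overlapping levels on both diets. Under the stricter filter the Lif ratio was 3.53 in cycling Wt1+ stromal, 0.454 in mesothelial-like and 0.471 in APC-like cells. Of the APC-like cells that filter kept 48 in LFD and 236 in HFD. When cells were typed by their own markers, the Lif ratio of APC-like cells was 2.50. That typing named 1595 LFD and 980 HFD cells APC-like in place of 212 and 574, most of them from outside the APC-like cluster. By level, Lif was highest in the ILC2-like cells of both libraries, at 15.7 CPM (10 UMIs in 7 cells) in LFD, overlapping APC-like cells, and 30.6 CPM (13 UMIs in 7 cells) in HFD, with free RNA estimates of 0.132 and 0.143 CPM. That ratio was 1.95, its interval from 0.789 to 4.96 held 1, and as a mean over cells it was 1.135. No Lif UMI was found in endothelial-like or B-like LFD cells, where 3 counts would have given 0.788 and 0.571 CPM.

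Il11, a cytokine known from fibroblasts and fibrosis, was the rarest member with 141 LFD and 181 HFD UMIs, of which the 4 stromal clusters held 99.3% and 96.7%. Its level was 2.32 CPM in LFD and 4.17 CPM in HFD Wt1+ stromal cells, a ratio of 1.80 (1.32 to 2.45) that was 1.22 under the stricter filter. Cycling Wt1+ stromal cells had 1.77 and 3.01 CPM (1.70, 1.02 to 2.87), and the ratio was 1.20 with doublets kept and 3.39 with cells typed by their own markers. Mesothelial-like cells had 1.02 and 0.792 CPM, and the interval of that ratio ran from 0.414 to 1.45. In APC-like cells 6 and 24 UMIs gave 2.68 and 4.02 CPM, with a ratio of 1.5 whose interval, 0.598 to 4.49, held 1. With cells typed by their own markers the ratio was 3.06, again on 1595 LFD and 980 HFD cells, mostly from outside the APC-like cluster. No Il11 UMI was seen in macrophage-like, B-like, T-like or ILC2-like cells of either library.

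Osm, a cytokine made by myeloid cells that acts on stroma, had the reverse distribution. Macrophage-like cells held 60.8% of its 171 LFD UMIs and 63.5% of its 241 HFD UMIs, B-like cells 21.1% and 21.6%, and the 4 stromal clusters 2.34% and 1.24%. Macrophage-like cells had an Osm level of 41.7 CPM (34.1 to 50.6) on LFD and 44.6 CPM (37.8 to 52.3) on HFD, which overlapped, with a ratio of 1.07 (0.828 to 1.39). Neutrophil-like cells had 27.3 CPM from 7 UMIs and 57.3 CPM from 5 UMIs, intervals that overlapped those of the macrophage-like cells. B-like cells had 6.85 CPM on LFD and 12.4 CPM on HFD, a ratio of 1.81 (1.16 to 2.85), and 1.5 when the mean over cells was taken. ILC2-like cells had 15.7 and 18.8 CPM from 10 and 8 UMIs. APC-like cells had no Osm UMI in either library, and Wt1+ stromal cells had 1 in each.

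**Figure D3:**
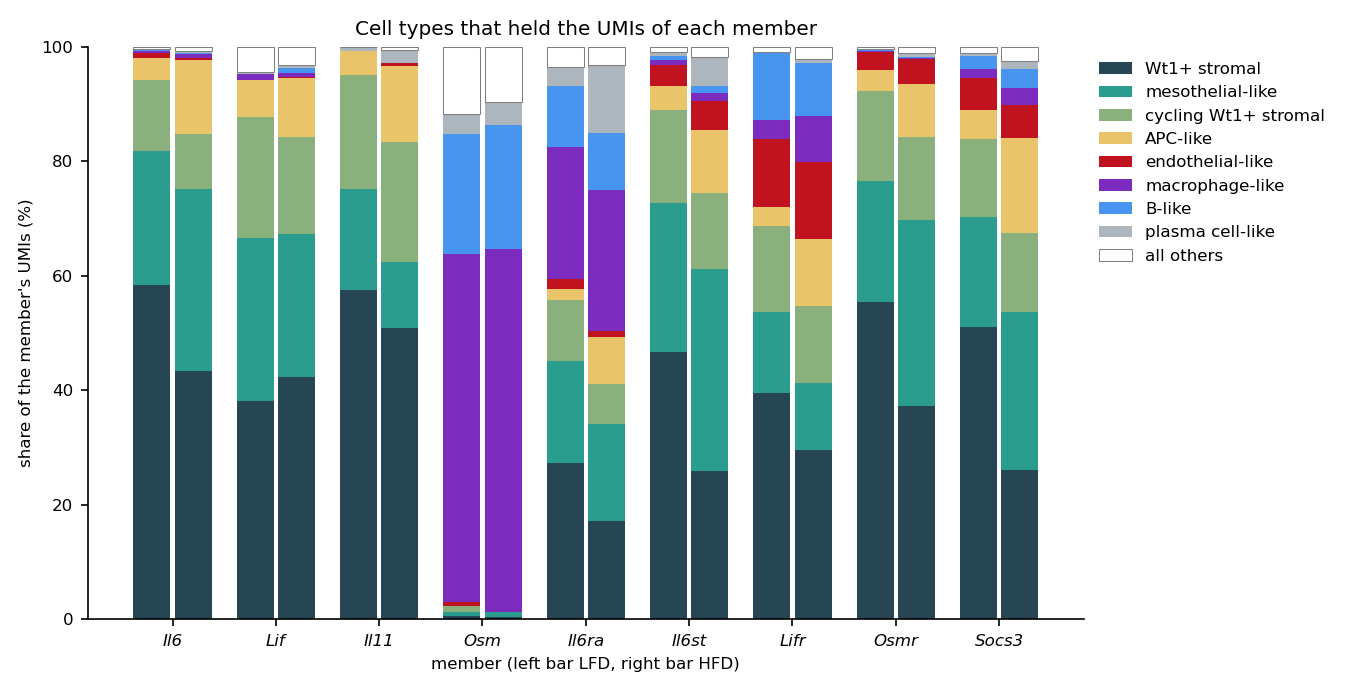
Share of each member's UMIs (%) held by the cell types, for LFD (left bars) and HFD (right bars). The 4 stromal types hold 98.2% and 97.8% of Il6 but 2.34% and 1.24% of Osm, and 57.7% and 49.2% of Il6ra, of which macrophage-like cells hold 23.2% and 24.6%.

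Il6st, the gp130 gene, had UMIs in every cell type of the LFD library, although the 5 in ILC2-like cells (7.85 CPM, 2.55 to 18.3) were within reach of a free RNA estimate of 5.34 CPM. In LFD its level was 219 CPM in APC-like, 158 CPM in Wt1+ stromal, 126 CPM in mesothelial-like, 122 CPM in cycling Wt1+ stromal and 118 CPM in endothelial-like cells, and the last 3 of these overlapped with their neighbours. Dendritic cell-like cells had 67.7 CPM, macrophage-like 35.3 CPM, and B-like and plasma cell-like 18.1 and 14.6 CPM. On HFD the order was different. Endothelial-like cells stood highest at 181 CPM (164 to 198), overlapping APC-like cells at 165 CPM (155 to 175), while Wt1+ stromal cells were at 104 CPM (99.8 to 108).

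The diet ratio of Il6st was therefore 0.657 (0.625 to 0.690) in Wt1+ stromal cells, between 0.616 and 0.7995 under the 5 alternatives, and 1.52 (1.34 to 1.74) in endothelial-like cells. It was 0.754 in cycling Wt1+ stromal (0.701 to 0.811) and in APC-like cells (0.676 to 0.842). In mesothelial-like cells the levels of 126 and 118 CPM gave 0.940 (0.894 to 0.988), which was 1.05 under the stricter filter, and macrophage-like cells had 35.3 CPM on both diets (1.00, 0.753 to 1.33). Plasma cell-like cells had 14.6 and 21.8 CPM (1.49, 1.17 to 1.92), but a ratio of 0.566 with cells typed by their own markers. Endothelial-like cells were shallower in HFD, with a median of 2935.5 UMIs against 3970, and their median gene was 0.16 higher on the log2 scale. Relative to it their ratio was 1.37 for Il6st, 1.29 for Osmr and 1.33 for Lifr. Marker lists also differed between the endothelial-like cells of the libraries: the 11 endothelial markers summed to 8535 CPM in LFD and 11716 CPM in HFD, the 9 mural markers to 73.8 and 215.5 CPM and the 8 cycling markers to 719 and 331 CPM. Their part in these ratios was not tested.

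Osmr, the partner of gp130 for oncostatin M, was high in many of the cells that had Il6st. Over the 20 sums of 10 cell types and 2 diets, the Pearson correlation of log2(CPM + 1) was 0.955 between them, with no other pair of members as high. Dendritic cell-like cells, which those sums left out, had Il6st at 67.7 and 50.1 CPM but Osmr at 1.25 CPM from 1 UMI in LFD and none in HFD, and plasma cell-like HFD cells had 21.8 and 2.23 CPM of them. Osmr stood at 179 CPM on LFD and 127 CPM on HFD in Wt1+ stromal cells (ratio 0.708, 0.677 to 0.740), and at 186 and 116 CPM in APC-like cells (0.622, 0.550 to 0.704), where free RNA was estimated at 21.7 and 2.31 CPM. Cycling Wt1+ stromal cells had 112 and 86.4 CPM (0.775), and mesothelial-like cells 97.5 and 91.8 CPM (0.942, 0.890 to 0.997). In endothelial-like cells the order was the other way, 91.9 and 132 CPM (1.44, 1.23 to 1.67). Macrophage-like cells, the main holders of Osm RNA, had little of its receptor: 8.02 CPM from 20 UMIs in LFD and 3.79 CPM from 13 in HFD, beside free RNA estimates of 3.74 and 1.29 CPM. Their ratio was 0.473 (0.216 to 0.998), and between 0.289 and 0.677 under the 4 alternatives run. B-like cells were at 4.57 and 3.34 CPM, with intervals that held their estimates of 3.77 and 1.95 CPM.

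Lifr, the receptor for LIF, was highest in endothelial-like cells on both diets, with 88.5 CPM (79.3 to 98.5) on LFD and 131 CPM (117 to 146) on HFD, which gave 1.48 (1.27 to 1.73). B-like cells came next in LFD at 63.2 CPM (56.6 to 70.4) and had 54.9 CPM in HFD (0.869, 0.731 to 1.03). Macrophage-like cells had 36.9 CPM in LFD and 58.1 CPM in HFD (1.57, 1.22 to 2.04), but the ratio was 0.783 under the stricter filter. Among stromal cells, APC-like cells had 41.9 and 48.5 CPM, Wt1+ stromal cells 32.0 and 33.0 CPM (1.03, 0.939 to 1.13) and cycling Wt1+ stromal cells 26.7 and 26.3 CPM. Mesothelial-like cells had the lowest stromal level, 16.2 and 10.9 CPM, with a ratio of 0.676 (0.579 to 0.789). Lifr was not found in T-like cells, where 3 counts would have given 7.56 CPM in either library, and plasma cell-like cells had 0.771 and 0.775 CPM.

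Il6ra, the gene for the membrane receptor that makes a cell directly responsive to IL-6, was at low levels in the cells that held Il6. The 4 stromal clusters, with 63.5% and 50.8% of the cells, held 57.7% of its 768 LFD UMIs and 49.2% of its 1133 HFD UMIs, against 23.2% and 24.6% in macrophage-like cells. These clusters held a larger share of all UMIs than of cells. Over the whole library, the Il6ra level was 7.96 CPM in LFD and 11.3 CPM in HFD. The level of Il6ra was highest in macrophage-like cells, 71.4 CPM (61.3 to 82.7) on LFD and 81.4 CPM (72.1 to 91.5) on HFD, with a ratio whose interval, 0.941 to 1.38, held 1. Neutrophil-like cells overlapped them at 42.9 and 80.2 CPM, from 11 and 7 UMIs. B-like cells had 15.6 and 26.8 CPM, a ratio of 1.71 (1.28 to 2.31), and dendritic cell-like cells 10.0 and 28.8 CPM from 8 and 19 UMIs. The stromal types lay between 5.18 and 6.25 CPM in LFD, plasma cell-like cells at 4.82 CPM and endothelial-like cells at 3.42 CPM. On HFD, Wt1+ stromal cells had 8.78 CPM (ratio 1.46, 1.20 to 1.78), mesothelial-like cells 7.28 CPM (1.30, 1.04 to 1.64), cycling Wt1+ stromal cells 6.17 CPM (1.19, 0.862 to 1.64, an interval that held 1) and APC-like cells 15.6 CPM (2.49, 1.41 to 4.74, from 14 and 93 UMIs). The 9 B cell markers summed to 255 CPM in LFD and 429 CPM in HFD APC-like cells, with 2 at 0 in each, against 11.1 and 11.4 CPM in Wt1+ stromal and 7513 and 7493 CPM in B-like cells, and their part in the APC-like ratio of Il6ra was not tested. No Il6ra UMI was found in ILC2-like cells of either library, where 3 counts would have given 4.71 and 7.05 CPM.

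Receptor pairs were then counted in single cells. UMIs of both Il6st and Osmr were in 60.3% of LFD and 64.5% of HFD Wt1+ stromal cells, and in 0.169% and 0.945% of macrophage-like cells. Il6st and Il6ra were found together in 5.09% and 9.72% of Wt1+ stromal cells and in 4.58% and 7.94% of macrophage-like cells, but at 2000 UMIs a cell in 0.330% and 0.380% of Wt1+ stromal and 1.80% and 0.813% of macrophage-like cells, from 10 cells or fewer each. These shares moved with depth: after thinning to 2000 UMIs the Il6st and Osmr share was 7.39% in LFD and 4.64% in HFD Wt1+ stromal cells, the opposite order. At that depth, endothelial-like cells had the highest Il6st and Lifr share, 5.50% in LFD and 10.8% in HFD, against 1.72% and 1.37% in Wt1+ stromal cells.

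Socs3, the inhibitor that STAT3 induces and that dampens gp130 signalling, was lower in HFD in all 4 stromal clusters. Wt1+ stromal cells had 216 CPM (211 to 221) on LFD and 83.8 CPM (80.0 to 87.7) on HFD, which gave a ratio of 0.388 (0.369 to 0.409). APC-like cells had 335 and 197 CPM (0.588, 0.536 to 0.645), mesothelial-like cells 116 and 73.5 CPM (0.636, 0.600 to 0.674), and cycling Wt1+ stromal cells 127 and 77.9 CPM (0.615, 0.570 to 0.664). In each, the intervals of the 2 libraries were far apart. In the APC-like cells free RNA was estimated at 28.3 of the 335 CPM in LFD and 2.18 of the 197 CPM in HFD. The order was the same outside the stroma: endothelial-like cells had 217 and 160 CPM (0.740, 0.655 to 0.834), macrophage-like cells 92.3 and 63.3 CPM (0.686, 0.567 to 0.829), plasma cell-like cells 11.6 and 4.85 CPM (0.419, 0.301 to 0.587, or 0.145 with cells typed by their own markers) and B-like cells 63.8 and 53.5 CPM (0.839, 0.705 to 0.997). T-like cells, with 16 and 20 UMIs, had a ratio of 1.25 and an interval from 0.616 to 2.58. With cells typed by their own markers it was 0.370, on 71 LFD and 70 HFD cells. Under the 5 alternatives the Wt1+ stromal ratio lay between 0.365 and 0.447. In these cells 11 of 15 immediate early and dissociation-sensitive genes also had ratios below 1, with a median log2 ratio of -0.21 beside 0.08 over all genes, and their part in the Socs3 ratio was not tested.

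With each cell thinned to 2000 UMIs, a Socs3 UMI was found in 30.5% of the LFD and 14.4% of the HFD Wt1+ stromal cells, and 46.6% and 30.4% of APC-like cells. Without thinning the shares were 75.2% and 62.9% in Wt1+ stromal cells, although these cells were deeper in HFD. ILC2-like cells had 10 Socs3 UMIs in LFD and none in HFD, where 3 counts would have given 7.05 CPM. Il6 and Socs3 thus lay in opposite orders between the libraries in the Wt1+ stromal, mesothelial-like and APC-like cells, and in the cycling cells too, although there the Il6 ratio was 1.02 relative to the median gene.

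**Figure D4:**
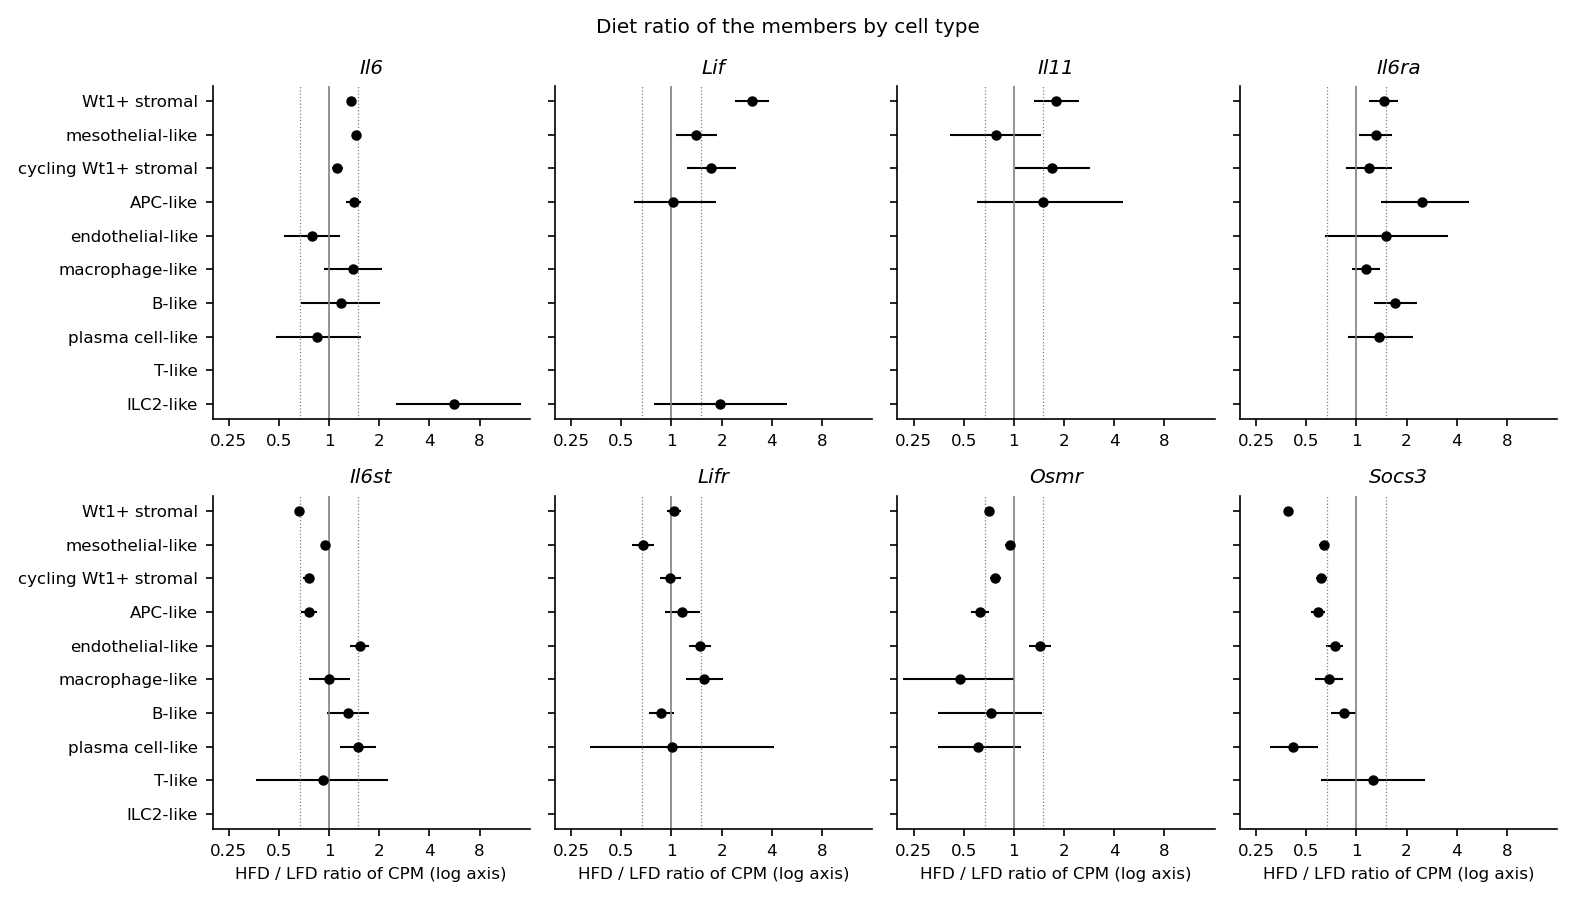
HFD to LFD ratio of CPM (log axis) for 8 members in the 10 cell types for which each library held 100 cells or more. Bars are exact 95% intervals for counting error, the solid line marks 1 and dotted lines 1.5-fold either way, and pairs with under 20 UMIs are left out. Socs3 lies below 1 in all types drawn but T-like, Il6 lies between 1.12 and 1.45 in the 4 stromal types, and Il6st and Osmr lie below 1 there but at 1.52 and 1.44 in endothelial-like cells.

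The members were set against all genes by the same rule of size, a ratio past 1.5-fold with at least 20 UMIs over both libraries. A member could pass the 20 through its higher library alone, so these counts describe the pair of libraries and are not support for a change. In Wt1+ stromal cells 2 of 8 members were past it upwards (Lif and Il11), beside 8.37% of all genes, and 2 downwards (Il6st and Socs3), beside 9.51%. In mesothelial-like cells none of 8 was higher, beside 10.1%, and Socs3 was lower, beside 5.10%. In cycling Wt1+ stromal cells Lif and Il11 were higher, beside 9.64%, and Socs3 was lower, beside 5.60%. In APC-like cells Il11 and Il6ra were higher, beside 18.0%, and Osmr and Socs3 lower, beside 7.24%. The median log2 ratio of the 8 members was 0.24 in Wt1+ stromal, -0.09 in mesothelial-like, 0.07 in cycling Wt1+ stromal and 0.12 in APC-like cells, beside 0.08, 0.13, 0.13 and 0.11 over all genes with at least 20 UMIs over both libraries, a wider set than that of the median gene above. Relative to the median gene, Osmr in Wt1+ stromal (0.664) and Lifr in mesothelial-like cells (0.620) were past the fold downwards as well. Il11 in APC-like cells was then inside it. Scaled to the median gene, the share of genes past the fold that were higher was 35.1% in place of 46.8% in Wt1+ stromal, 49.97% in place of 66.5% in mesothelial-like and 45.4% in place of 63.3% in cycling Wt1+ stromal cells.

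Outside the stroma, 2 of 6 members were higher in endothelial-like cells (Il6ra, from 26 UMIs, and Il6st), beside 19.7% of all genes, and none was lower, beside 8.78%. In macrophage-like cells Lifr was higher, beside 11.3%, and Osmr lower, beside 6.14%. In B-like cells Osm and Il6ra were higher, beside 9.96%, and none of 7 lower, beside 7.52%. In plasma cell-like cells none of 6 was higher, beside 7.27%, and Osmr and Socs3 were lower, beside 9.88%. T-like cells had 2 members with enough UMIs and neither was past the fold, beside 17.0% higher and 10.7% lower. The 2 such members in ILC2-like cells, Il6 and Lif, were both higher, beside 18.8%, with 15.8% of genes lower. Of the 22 cases in which a member was past the fold in a cell type, 8 were past it under every alternative run: Socs3 in Wt1+ stromal, mesothelial-like, cycling Wt1+ stromal and plasma cell-like cells, Il6ra in APC-like and B-like cells, Lif in cycling Wt1+ stromal cells and Il6 in ILC2-like cells. Of these 8, Il6 in ILC2-like cells had 3 alternatives and Il6ra in B-like cells 4, in place of 5. For neither was a ratio made under the stricter filter, which left 11 LFD and 8 HFD ILC2-like and 17 HFD B-like cells. The other 14 cases were within 1.5-fold or reversed under at least 1 alternative. Il6ra in endothelial-like cells, from 13 UMIs in each library (1.51, 0.645 to 3.54), lay between 1.06 and 1.42 under all 4 run there. Il6st in Wt1+ stromal cells was inside the fold under 4 of 5 and in endothelial-like cells under 3 of 5. Some members were past the fold only relative to the median gene. Socs3 was then lower in endothelial-like (0.663) and macrophage-like cells (0.660), and Il6st higher in plasma cell-like cells (1.63). The scaled share of higher genes was 46.8% in place of 69.2% in endothelial-like, 46.2% in place of 57.0% in B-like and 62.1% in place of 42.4% in plasma cell-like cells.

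Other genes of the pathway were taken from lists chosen with earlier results of these data known, and the same rule was used. Counts of listed genes past the fold therefore describe these libraries and are not support for a change. The shares over all genes are those given above. Of the 7 remaining cytokines of the family, Il27 and Il31 had no UMI in Wt1+ stromal cells, and Clcf1, a ligand of the ciliary neurotrophic factor receptor, stood at 11.8 and 17.7 CPM there (1.51, 1.31 to 1.74, or 1.42 relative to the median gene). Ctf1, the cardiotrophin gene, was higher in mesothelial-like (8.60 and 13.6 CPM, 1.58, or 1.45 relative to the median gene) and cycling Wt1+ stromal cells (3.98 and 8.23 CPM, 2.07). Il11ra1, the IL-11 receptor, was at 194 and 201 CPM in Wt1+ stromal cells (1.04, 0.998 to 1.08) and at 268 and 289 CPM in APC-like cells. Cntfr, the ciliary neurotrophic factor receptor, was at 11.6 and 4.03 CPM in Wt1+ stromal cells (0.348, 0.274 to 0.439), and its ratio was below 0.5 in the other 3 stromal clusters as well. Adam10 and Adam17, proteases that shed the IL-6 receptor, were past 1.5-fold in none of the 4 stromal clusters.

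None of the 8 JAK and STAT genes was past 1.5-fold in Wt1+ stromal, mesothelial-like or cycling Wt1+ stromal cells. Of all genes, 8.37%, 10.1% and 9.64% were higher there in that order, and 9.51%, 5.10% and 5.60% lower. Stat3 itself stood at 220 and 194 CPM in Wt1+ stromal cells (0.884, 0.851 to 0.918). In APC-like cells Stat6 (1.51, or 1.45 relative to the median gene) and Tyk2 (1.85) were higher, beside 18.0% of all genes. In endothelial-like cells 4 of the 8 were higher, Stat3 at 163 and 249 CPM (1.53, 1.36 to 1.71), Stat5a, Stat5b and Tyk2, beside 19.7% of all genes. Relative to the median gene none of the 4 was past the fold, with Stat3 at 1.37. In those same cells 10 of 15 immediate early and dissociation-sensitive genes were higher in HFD, among them Egr1 (2.06) and Nr4a1 (2.60), or 6 of 15 relative to the median gene. Whether handling had a part in the endothelial ratios of Il6st, Osmr and Lifr was not tested.

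The inhibitors other than Socs3 were split. In Wt1+ stromal cells 3 of 6 were lower, beside 9.51% of all genes, and none higher, beside 8.37%. The lower ones were Socs1 at 44.3 and 18.1 CPM (0.409, 0.366 to 0.457), Socs2 at 31.2 and 19.7 CPM (0.633) and Cish at 23.9 and 13.6 CPM (0.568), all SOCS family genes, whereas the phosphatases Ptpn11 and Ptpn2 and the STAT3 inhibitor Pias3 were not past the fold. In mesothelial-like cells none of the 6 was past it, but Socs2 (0.697) was at 0.639 relative to the median gene. Socs2 and Cish were lower in cycling Wt1+ stromal cells (0.494 and 0.549), while in APC-like cells Socs2 was higher (1.51, or 1.44 relative to the median gene) and Cish lower (0.466). In endothelial-like cells Cish (1.71) and Ptpn11 (1.64, or 1.47 relative to the median gene) were higher.

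Of the 15 listed STAT3-responsive genes, 14 had enough UMIs in Wt1+ stromal cells and 11 had ratios below 1. Past the fold, 6 were lower, beside 9.51% of all genes, and none was higher, with a median log2 ratio of -0.44 beside 0.08 over all genes. Since the list was chosen with earlier results of these data known, these values are a description only. The lower ones were the acute phase genes Saa3 (17282 and 5219 CPM, ratio 0.302), Hp (513 and 51.3 CPM, 0.100), Lcn2 (52.6 and 24.0 CPM, 0.455) and Lrg1 (1.43 and 0.543 CPM, 0.379), the protease inhibitor Timp1 (2422 and 824 CPM, 0.340) and the transcription factor Cebpd (199 and 124 CPM, 0.621). The remaining 8 were within 1.5-fold. Of these, the transcription factor Fos was at 0.725 and the kinase Pim1 at 0.752, Mcl1, Bcl3, Junb, Bcl6 and Myc lay between 0.885 and 1.11, and Cebpb was at 263 and 388 CPM (1.48, 1.43 to 1.52). Saa3, Hp, Lcn2 and Timp1 were lower in HFD in the other 3 stromal clusters too, with Hp ratios of 0.162 in mesothelial-like, 0.0789 in cycling Wt1+ stromal and 0.382 in APC-like cells. Bcl6, a repressor, went the other way in those 3 clusters, with ratios from 1.60 to 1.76, of which that of the cycling cells was 1.46 relative to the median gene.

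**Figure D5:**
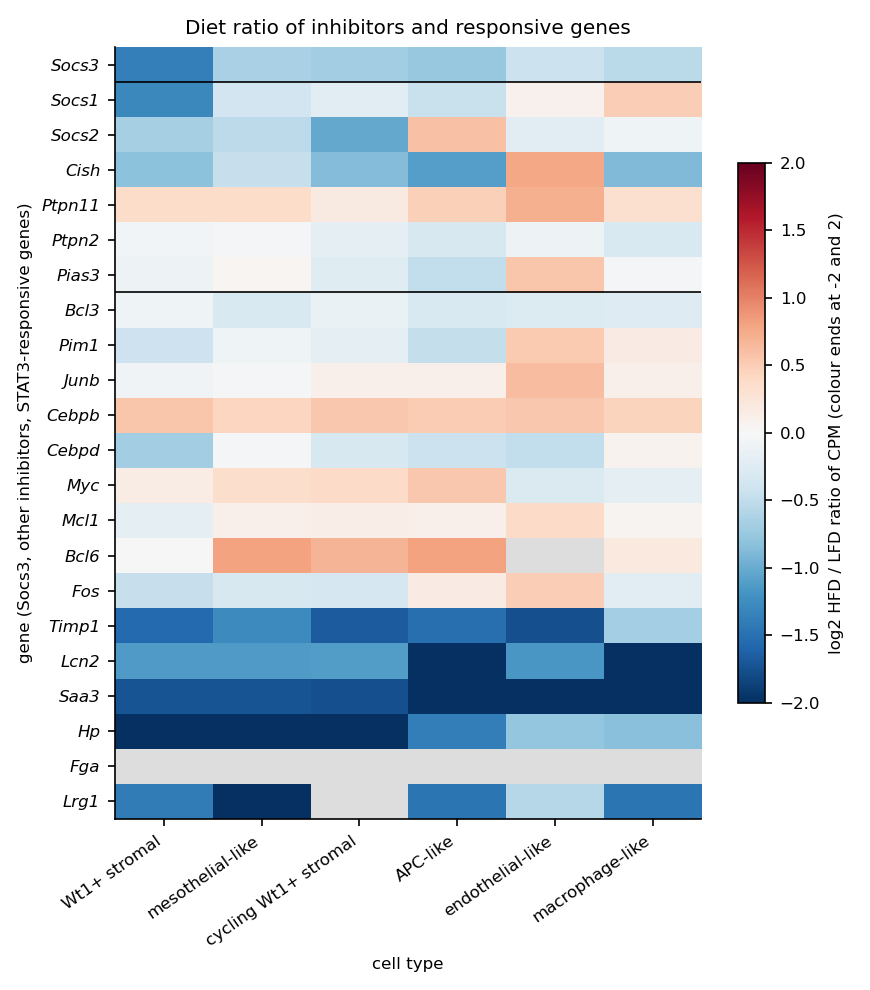
Log2 HFD to LFD ratio of CPM of Socs3, 6 other inhibitors and 15 STAT3-responsive genes in 6 cell types, with blue for lower and red for higher in HFD and grey for genes under 20 UMIs. The colour scale ends at -2 and 2. Socs3, Timp1, Lcn2, Saa3 and Hp are blue in all 6 types, whereas Cebpb and Ptpn11 are red in all 6.

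The NF-kB pathway is known to induce Il6. Of its 8 listed genes, 2 were past the fold in Wt1+ stromal cells and both were higher, beside 8.37% of all genes, Nfkb1 at 156 and 335 CPM (2.15, 2.08 to 2.23) and Rel at 19.7 and 32.5 CPM (1.65, 1.48 to 1.83). Nfkb1 was also higher in mesothelial-like (1.57, or 1.43 relative to the median gene) and APC-like cells (1.63), where Rel was lower (0.654). In Wt1+ stromal cells the immediate early list had 1 gene higher, the heat shock gene Hspa1b at 7.22 and 32.5 CPM, and 1 lower, Fosb at 798 and 499 CPM. Several others of that list were nearer to 1 but below it, with ratios of 0.725 for Fos, 0.751 for Jun, 0.684 for Jund (0.642 relative to the median gene) and 0.736 for Ier2.

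Of 13021 other genes with at least 200 UMIs, those whose levels over the 20 sums were most like Il6 were Cxcl1 (Pearson correlation 0.986 on log2(CPM + 1)), Cpq (0.963) and then Tm7sf3. For Osm they were Il10ra (0.965), Cd84 (0.954) and Lilrb4a (0.954), which are genes of immune cells. For Osmr they were Adgra3 (0.980), Nr2f2 (0.978) and Hoxa5 (0.977), and for Il6st Tshz2 (0.963), Fkbp9 (0.961) and Arhgef40 (0.960). Lif was nearest to Ptpn13 (0.916), Il11 to Cldn11 (0.960), Lifr to Myo1c (0.926), Socs3 to Mcee (0.926) and Il6ra to Nt5c2 (0.886). Sums of 1 library share its cells and depth, and the 4 stromal types are alike, so these values describe which cells hold the RNA.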

How the data were processed

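Single-cell RNA-seq libraries were made from live eYFP+ stromovascular cells of gWAT, 1 per diet, so no test between diets was run. The deposited values were counts of UMIs per gene and cell. Per the submitters' processing notes the authors used bcl2fastq 2.17.1.14, Cell Ranger 4.0.0 with STAR, and Seurat 4.1.0 on the mm10 genome. The annotation release was not given in the sources used here. The tables were used as deposited.

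Cells with 500 to 40000 UMIs, at least 100 genes and under 12.5% mitochondrial UMIs were kept from 11281 LFD and 9631 HFD barcodes. The tables summed to 114311020 UMIs in LFD and 119498750 in HFD. The barcodes with the highest Scrublet scores (scanpy 1.11.5) were removed as doublets, 922 in LFD and 658 in HFD, at 0.8% per 1000 barcodes. Cells were integrated and clustered in Seurat 5.3.0 (R 4.3.3; 1996 variable genes without the members, 30 components, resolution 0.3, 16 clusters), and clusters were named from marker lists. UMIs were summed per library and type and scaled to CPM, with exact Poisson 95% intervals. HFD to LFD ratios had exact conditional binomial intervals and were made where each library had 100 cells or more of a type, which held for 10 types. Under the alternatives this number of cells was not asked for, and the stricter filter left 48 LFD APC-like cells. All intervals and floors (3 counts) cover counting error only. Shares of cells with a UMI were read after thinning to 2000 UMIs, without shallower cells. Free RNA was estimated from tracer genes that a type should lack.

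The text names the 9 members, the genes of the pathway lists, and the 3 genes most like each member over the sums. The members and lists were chosen with earlier results of these data known. Gene places came from the GENCODE annotation of GRCm38 (the mm10 genome), and promoter sequence from RefSeq GRCm38.p6, with a window of 250 bases before to 50 after each start, and 8 of 9 members matched. The ratio script was checked on simulated data. Alternatives were median-ratio scaling, means of per-cell CPM, doublets kept, a stricter cell filter, cell types called cell by cell from markers, thinning to 4000 UMIs or none, and at least 50 counts. Python 3.11.15, numpy 2.4.6 and scipy 1.17.1 were used. Some genes of the pathway lists are not reported here.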

Additional observations from a re-analysis of the deposited data

Results flagged for a closer look

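Chosen for ratios on opposite sides of 1 in a pair of cell types, each with an interval that left out 1, 3 members stood out. The Il6st ratio of HFD to LFD was 1.52 in endothelial-like and 0.657 in Wt1+ stromal cells, a quotient of 2.32. The Osmr ratio was 1.44 in endothelial-like and 0.473 in macrophage-like cells, a quotient of 3.04, although the macrophage-like value rested on 20 and 13 UMIs and was 0.677 with cells typed cell by cell. The Lifr ratio was 1.57 in macrophage-like and 0.676 in mesothelial-like cells, a quotient of 2.33, and the macrophage-like ratio was 0.783 under the stricter cell filter. None of these differences between cell types was tested, since each diet had 1 library.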

How the results depend on the processing

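No paired analysis was possible because each diet had 1 library and no fit was made. The HFD to LFD ratio of Il6 in Wt1+ stromal cells (1.35) was 1.26 with median-ratio scaling, 1.22 under the stricter cell filter and 1.5 with cells typed cell by cell. In mesothelial-like cells (1.45) it was 1.32, 1.57 and 1.58 in that order, in cycling Wt1+ stromal cells 1.02 with median-ratio scaling, and in APC-like cells 1.21 under the stricter filter. That filter left 48 LFD and 236 HFD APC-like cells. The 4 stromal clusters held 94.6% of LFD and 93.9% of HFD Il6 UMIs with doublets kept, and 71.9% and 81.3% with cells typed cell by cell, which gave the cluster's own name to 39.0% of Wt1+ stromal and 44.2% of mesothelial-like cells. Under the stricter filter the ratio of Lif was 0.997 in Wt1+ stromal and 0.454 in mesothelial-like cells, that of Il6st 1.05 in mesothelial-like cells and that of Lifr 0.783 in macrophage-like cells. The filter kept 2275 LFD and 2807 HFD cells of all types, and 1196 of the HFD ones were plasma cell-like. The Il6st ratio in plasma cell-like cells was 0.566 with cells typed cell by cell. The cause of these shifts was not tested. With at least 50 counts asked for in place of 20, fewer genes were tested, and those past 1.5-fold numbered 930 in place of 1706 in macrophage-like, 1134 in place of 1813 in B-like, 1149 in place of 1858 in plasma cell-like, 495 in place of 1457 in T-like and 845 in place of 1888 in ILC2-like cells, with shifts under 1.5 times in the other 5 types. With doublets kept, T-like and ILC2-like cells formed no clusters of their own and gave no values. Lif, Il11 and Osm were limited by depth, with at most 509 UMIs each in a library.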
